A study of Mus musculus with 84 samples.

Results

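The comparison described here is that of MLL-ENL with control hematopoietic progenitor cells (HPC) from the bone marrow of 10 week old mice, taken over all mouse genes. It uses 8 of the 84 RNA-seq libraries of the series, 4 of MLL-ENL and 4 of control mice, chosen by their labels for age, cell type and genotype. The MLL-ENL mice carried a tetracycline-regulated MLL-ENL transgene and were labelled as having had no doxycycline and a fetal induction. The controls were labelled wild type with the same note on doxycycline and induction. The labels name neither the promoter or transactivator behind the transgene nor any pooling of animals. The labels call the population a committed hematopoietic progenitor cell, and the same library numbers also appear on libraries of pre-granulocyte-monocyte progenitors (pGM) and granulocyte-monocyte progenitors (GMP). Libraries are called by the number in their labels, which is 73, 74, 78 and 81 for MLL-ENL and 76, 80, 87 and 88 for control, and values per library are given in that order. Nothing in the labels says that libraries came from separate animals, so p-values measure the spread between these samples. The title of the series sets the start of MLL-ENL leukemia against age, and this comparison gives the adult side after induction in fetal life.

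MLL (Kmt2a) is a histone methyltransferase that binds at promoters and keeps developmental genes active. ENL (Mllt1) belongs to complexes that promote transcript elongation, and the fusion found in leukemia carries the DNA-binding end of MLL joined to ENL. In mouse and human leukemia the fusion is known for holding the Hoxa genes and Meis1 active. Multipotent and early committed progenitors give rise to pGM and GMP, which make neutrophils and monocytes, and these cells turn on granule protein genes such as Mpo as they leave the earlier stage.

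Among 14899 genes tested, 26 differed between MLL-ENL and control HPC at an adjusted p under 0.05 with edgeR's quasi-likelihood test, which is 0.175% of the genes. Of these, 18 were higher (0.121% of the genes) and 8 were lower (0.0537%) in MLL-ENL. Higher genes included the interleukin 9 receptor gene Il9r, the adjacent genes Skida1 and A930004D18Rik, and the cell adhesion genes Cdh1 and Pcdh7. Lower genes included the kelch-family gene Klhl4, the aminopeptidase gene Lvrn, the endotoxin co-receptor gene Cd14 and the platelet protein gene Mmrn1. Libraries held 11.43 to 17.01 M counts on mouse genes in MLL-ENL and 10.26 to 19.2 M in control HPC. In 24 of the 26 genes no MLL-ENL library overlapped a control library, where 1.77% of all tested genes had groups without overlap. The exceptions were Igkv2-137 and A930004D18Rik. As the 26 genes were called on these same libraries, such separation is largely built into their choice and is no separate evidence. Leaving out control library 76 lowered the count to 17.

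**Figure D1:**
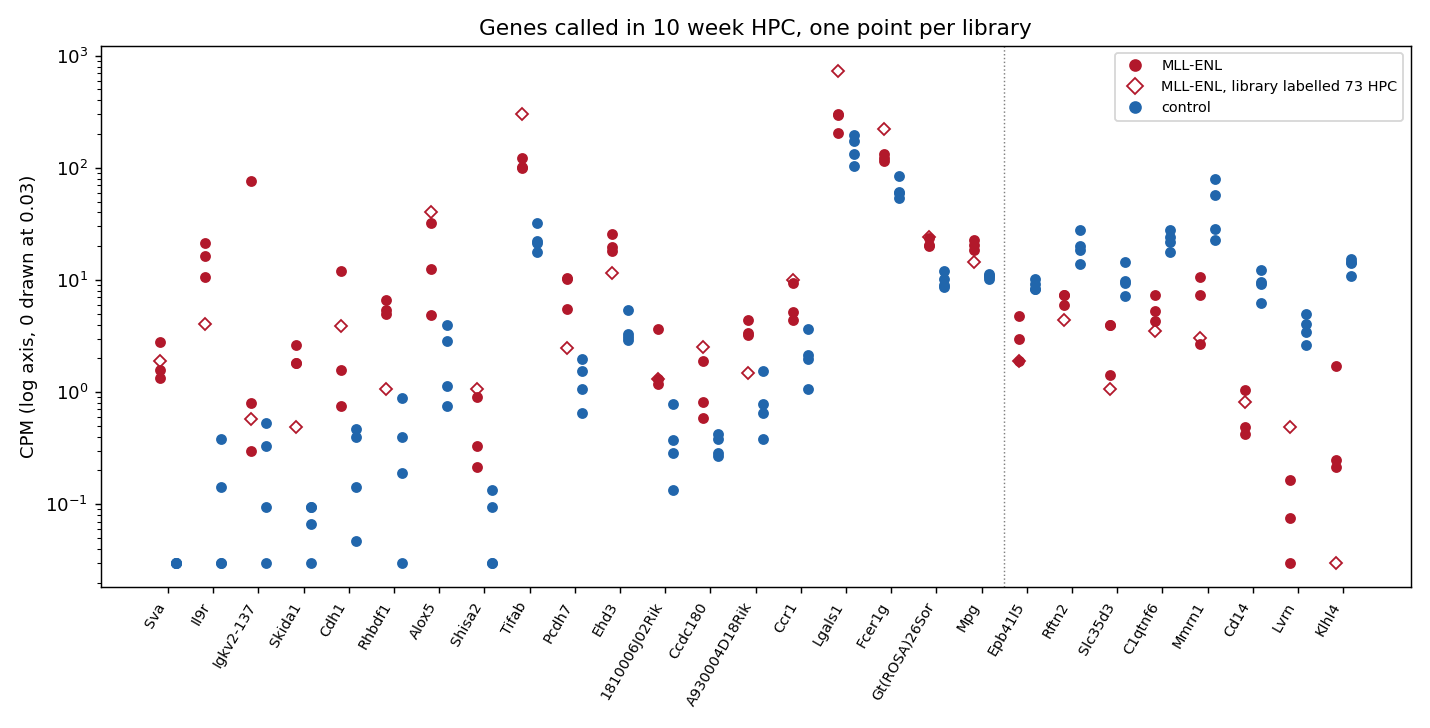
Level of each gene called with 4 or with 3 MLL-ENL libraries, in CPM (the count scaled to library size by edgeR) on a log axis, with one point per library, MLL-ENL left and control right for each gene; open diamonds mark the library labelled 73 HPC and values of 0 are drawn at the bottom. Genes left of the dotted line were higher in MLL-ENL, and for most of them the MLL-ENL points lie above all control points.

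One library went against its label, as the one labelled 73 HPC carried pGM markers. A score set the mean log2 CPM of 50 genes higher in HPC against that of 50 genes higher in pGM, both chosen on the control libraries of another set of mice. This score came to -1.78 in the library labelled 73 HPC, to 2.82, 2.94 and 2.43 in the MLL-ENL libraries 74, 78 and 81, and to 3.34, 2.25, 2.63 and 2.67 in the control HPC libraries. Its counterpart, labelled 73 pGM, scored 2.79, while the other MLL-ENL pGM libraries lay between -2.42 and -1.9 and control pGM libraries between -2.25 and -1.48. The 7 pGM and GMP markers summed to 20000 CPM in the library labelled 73 HPC, to 2490 to 4050 CPM in the other MLL-ENL HPC libraries and to 2350 to 4140 CPM in control HPC. The stem cell antigen gene Ly6a, part of the usual sort for HPC, had 17.5, 294, 328 and 201 CPM in MLL-ENL libraries, against 174, 252, 230 and 249 CPM in control libraries. Summed over the 6 HPC markers, Ly6a among them, the library labelled 73 HPC had 3910 CPM. The other MLL-ENL libraries had 3010 to 4290 CPM and control libraries 4160 to 5250 CPM. The 4 stem cell markers summed to 82.8 CPM, to 322 to 491 CPM and to 259 to 366 CPM in the same order. The 5 erythroid and megakaryocyte markers summed to 378 CPM in the library labelled 73 HPC, to 27.4 to 87.7 CPM in the other MLL-ENL libraries and to 25.5 to 39.0 CPM in control libraries. The 4 mast cell and basophil markers summed to 393 CPM, to 252 to 733 CPM and to 23.3 to 452 CPM in the same order, the 5 monocyte and dendritic markers to 1010 CPM, to 1040 to 1330 CPM and to 781 to 1300 CPM, and the 3 lymphocyte markers, nearly all of it Nkg7, to 828 CPM, to 538 to 912 CPM and to 481 to 619 CPM. Markers within the mast cell and monocyte sums went opposite ways. The library labelled 73 HPC had 147 CPM of Csf1r, 176 CPM of Irf8 and 269 CPM of Cpa3. The other MLL-ENL libraries had 6.99 to 14.4, 9.21 to 21.6 and 24.3 to 49.0 CPM. Control libraries had 14.6 to 28.1, 19.1 to 40.4 and 11.9 to 23.5 CPM. Mcpt8 and Ms4a2 were also highest in 73 HPC. Cd74, Lyz2 and Prss34 were instead lowest there among MLL-ENL libraries, with Prss34 at 7.64 CPM against 201 to 630 CPM. The 3 stroma markers summed to at most 1.17 CPM in any of the 8 libraries, and Col1a1 was at 0 in 2 MLL-ENL and 3 control libraries. Fold changes between MLL-ENL and control HPC, or their adjusted p, are therefore given with and without the library labelled 73 HPC. Xist, the RNA of the inactive X chromosome, was at 89.8 and 99.4 CPM in 2 MLL-ENL libraries and at 123 and 52.1 CPM in 2 control libraries. The other 2 of each group carried transcripts of the Y chromosome, so with all libraries both groups held the same mix. The library labelled 73 HPC was among those with Y transcripts, so without it the mix differed between the groups.

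**Figure D2:**
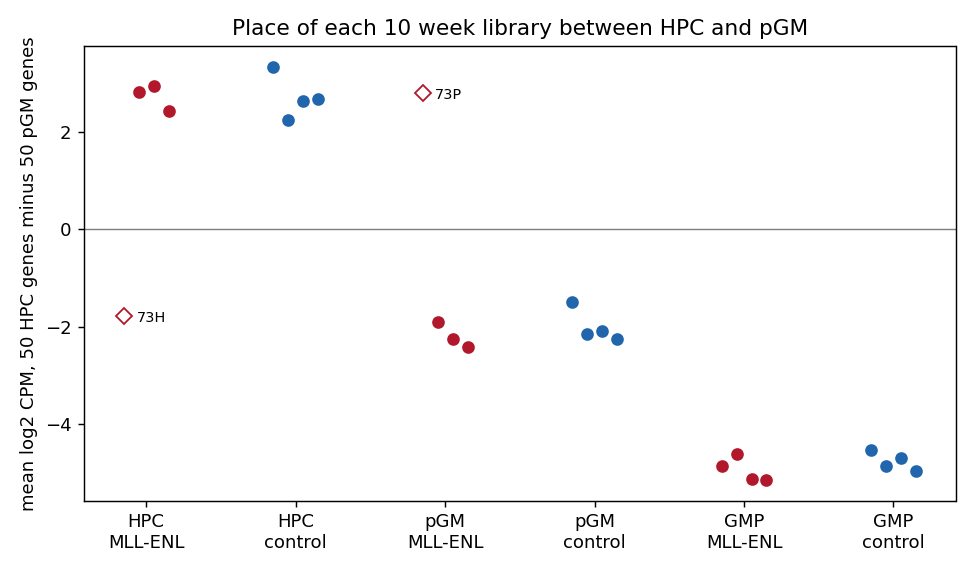
Mean log2 CPM of 50 HPC genes minus that of 50 pGM genes in each 10 week library, by population and genotype, with MLL-ENL left of control. The library labelled 73 HPC (-1.78) lies with the pGM libraries and the library labelled 73 pGM (2.79) lies with the HPC libraries.

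Without the library labelled 73 HPC, 18 of 14888 genes passed (0.121%), 13 higher and 5 lower. These included 17 of the 26 genes, 12 higher and 5 lower, plus Mpg. The 9 genes that no longer passed were Alox5, Shisa2, Ccdc180, Ccr1, Lgals1, Fcer1g, Epb41l5, Slc35d3 and Cd14, with adjusted p between 0.075 and 0.25. For 8 of these 9, all but Cd14, the mean of control pGM lay on the side of the change from that of control HPC. This was so for 12 of the 17 genes that passed both times. The library labelled 73 pGM lay beyond every control HPC library in the direction of the change for 6 of the 9 and 15 of the 17. The shares over all tested genes were not taken, and the library labelled 73 HPC helped to choose these genes. The counts therefore cannot be weighed. Without both libraries numbered 73, HPC and pGM, 26 genes passed, 20 higher and 6 lower, of which 19 were among the 26. Alox5 and Fcer1g were among these 19 (adjusted p = 0.023 and 0.022). What the pGM markers of the library labelled 73 HPC add to these differences was not tested. In bulk RNA, fewer cells of a type and less RNA per cell cannot be told apart.

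**Figure D3:**
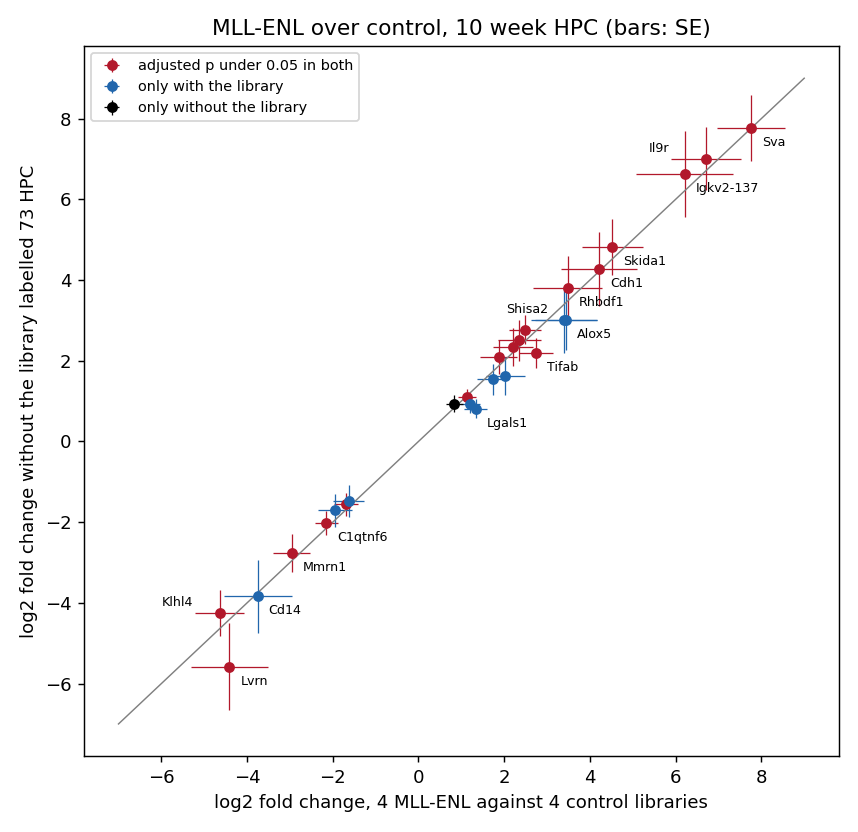
log2 fold change of MLL-ENL over control HPC with all 4 MLL-ENL libraries (x) and without the library labelled 73 HPC (y) for each gene called either time, with standard errors as bars. All points keep their sign; Tifab and Lgals1 lie on the side of a smaller change without that library, at 2.20 and 0.81 against 2.74 and 1.34 with it. The fitted position of Sva, which had no reads in control libraries, depends on the model's prior count.

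The transgene itself checks the labels. Reads assigned to the human KMT2A and MLLT1 sequences, which are lines of their own in the count table, numbered 44, 31, 72 and 104 in the MLL-ENL libraries and 2, 0, 1 and 0 in the control libraries. This equals 4.62 ± 1.92 CPM of mouse counts in MLL-ENL and 0.0457 ± 0.0538 CPM in control HPC (SD, n = 4 each). All MLL-ENL libraries were above all control libraries (two-sided exact permutation test on log2 CPM with 0.1 added, p = 0.029, the smallest the design gives). Without the library labelled 73 HPC the smallest p the test gives is 0.057, and that was the value. Mouse Kmt2a and Mllt1 did not pass, with log2 fold changes of 0.20 ± 0.33 and -0.01 ± 0.26 (SE), or 0.24 and -0.06 without 73 HPC. Among the called genes, Gt(ROSA)26Sor had 24.2, 23.5, 20.4 and 20.1 CPM in MLL-ENL libraries, against 8.73, 12.1, 9.09 and 10.2 CPM in control libraries (adjusted p = 0.0056, and 0.02 without 73 HPC). Whether counting used strand is unknown, and 7 genes called either time overlap another gene: Gt(ROSA)26Sor, Pcdh7, A930004D18Rik, Mpg and Rftn2 on the opposite strand, Lvrn and Klhl4 on the same one. Their counts may hold reads of the partner. Sva, a seminal vesicle gene, held 104 counts over the MLL-ENL libraries and 0 over the control libraries, which makes it at least 37.4-fold higher against a floor of 3 counts over the control group. Floors of this kind cover counting error only.

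The 3 promoter stretches that follow belong to genes called in both fits whose RefSeq start site equals the start in the GENCODE vM21 annotation on GRCm38, from which all positions here are taken, since the build behind the counts is unknown. They are shown because they stand for both directions of change and differ in their content of CpG pairs, printed in capitals. Each runs 5′ to 3′ along its gene and covers the 250 bases before the start (RefSeq, GRCm38.p6). The Il9r stretch lies at chr11:32200280-32200529 on the minus strand, that of Klhl4 at chrX:114474083-114474332 on the plus strand and that of Sva at chr6:42038144-42038393 on the plus strand.
Il9r: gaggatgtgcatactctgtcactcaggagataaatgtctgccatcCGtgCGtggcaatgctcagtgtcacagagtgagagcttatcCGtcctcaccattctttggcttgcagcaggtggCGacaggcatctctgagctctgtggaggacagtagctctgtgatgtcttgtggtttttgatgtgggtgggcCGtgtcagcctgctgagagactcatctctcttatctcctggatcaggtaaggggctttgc
Klhl4: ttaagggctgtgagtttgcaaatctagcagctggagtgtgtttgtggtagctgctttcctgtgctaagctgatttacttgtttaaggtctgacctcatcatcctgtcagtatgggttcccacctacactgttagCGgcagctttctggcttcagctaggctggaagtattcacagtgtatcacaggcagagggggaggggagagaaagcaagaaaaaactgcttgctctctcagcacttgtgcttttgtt
Sva: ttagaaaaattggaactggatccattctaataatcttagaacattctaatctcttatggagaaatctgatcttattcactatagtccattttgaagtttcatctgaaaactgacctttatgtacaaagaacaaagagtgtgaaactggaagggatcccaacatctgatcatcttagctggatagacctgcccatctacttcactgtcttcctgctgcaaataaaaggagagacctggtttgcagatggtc
These hold 5, 1 and 0 CpG pairs, where the median over the promoters of 10795 tested genes was 15. RefSeq promoters were matched for 17 of the 27 genes called either time. Their median was 5 CpG pairs, and 7 of the 17 held fewer than 5, against 14.4% of all matched promoters. The letters TGACAG, a core bound by MEIS factors, occurred on either strand in 4 of the 17 (Il9r, Tifab, A930004D18Rik and Klhl4) and in 14% of all promoters. The GATA core AGATAA occurred in Il9r alone among them and in 6.26% of all, and the RUNX core TGTGGT in 4 of 17 and in 11.3% of all. The HOX-PBX letters TGATTTAT occurred in none of the 17 and in 0.343% of all promoters. These are letter matches in one window.

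Among receptor and signalling genes, Il9r (chromosome 11, 32187541 to 32200279, minus strand), the receptor chain for the T cell and mast cell growth factor interleukin 9, had 4.03, 10.6, 16.4 and 21.2 CPM in MLL-ENL libraries, against 0.141, 0.378, 0 and 0 CPM in control libraries. Every MLL-ENL library was well above the controls, and the one labelled 73 HPC was the lowest. Its log2 fold change was 6.71 ± 0.81 (SE; adjusted p = 2e-06), and 7.0 without 73 HPC (adjusted p = 5.6e-07). It was the only called gene among 24 tested interleukin receptor genes. Their median log2 fold change was 0.11, beside 0.01 over all genes, or 0.1 beside 0.0 without 73 HPC. Tifab, an inhibitor of the NF-kappaB adaptors TIFA and TRAF6, had 299, 99.2, 101 and 122 CPM in MLL-ENL libraries, against 17.7, 21.5, 22.3 and 31.9 CPM in control libraries. The value in 73 HPC was far above the others, and the other MLL-ENL libraries were still all above every control. The log2 fold change of Tifab was 2.74 ± 0.39 (adjusted p = 5.9e-05), and 2.20 (adjusted p = 0.0012) without 73 HPC. Control pGM had a Tifab level of 237 ± 57.8 CPM (SD, n = 4), so the level of the library labelled 73 HPC lay near that of pGM. Tifab was the only called gene of 23 tested in its signalling list, which holds Tifa, Traf6, the Irak genes and the NF-kappaB subunits. The list's median was 0.01, or -0.11 without 73 HPC.

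Ehd3, a protein of endocytic recycling, had 11.5, 19.5, 18 and 25.7 CPM in MLL-ENL libraries, against 2.91, 3.12, 5.35 and 3.29 CPM in control libraries. The groups were apart with each library counted, and the log2 fold change was 2.35 ± 0.50 (adjusted p = 0.02) with and 2.51 (adjusted p = 0.02) without 73 HPC. It did not pass without MLL-ENL library 81 or without control 76, 80 or 88 (adjusted p = 0.079, 0.13, 0.077 and 0.091). The other 3 members of the EHD family did not pass. Pcdh7, a protocadherin of cell adhesion, had 2.46, 5.46, 10.4 and 10.3 CPM in MLL-ENL libraries, against 0.657, 1.99, 1.54 and 1.07 CPM in control libraries. Here 73 HPC was the lowest of its group and lay near the highest control, and Pcdh7 had 2.49 ± 0.38 on the log2 scale (adjusted p = 1.8e-04), or 2.77 (adjusted p = 1.1e-05) without it. Cdh1, which encodes E-cadherin, had 3.86, 0.748, 1.56 and 12.0 CPM in MLL-ENL libraries, against 0.0469, 0.473, 0.401 and 0.143 CPM in control libraries. Library 81 held most of it, the 4 MLL-ENL values spread widely, and Cdh1 had 3.51 ± 1.71 CPM in control pGM. Its log2 fold change of 4.22 ± 0.89 (adjusted p = 0.02; 0.03 without 73 HPC) no longer passed without library 81 or without control 76, 87 or 88 (adjusted p = 0.22, 0.15, 0.061 and 0.098).

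The next 6 genes passed with all libraries and not without the library labelled 73 HPC. Lgals1, which encodes the carbohydrate-binding protein galectin-1, had 737, 303, 293 and 205 CPM in MLL-ENL libraries, against 104, 173, 134 and 197 CPM in control libraries. The lowest MLL-ENL library was just above the highest control library. For Lgals1 the log2 fold change was 1.34 ± 0.27 (adjusted p = 0.015), and 0.81 without 73 HPC (adjusted p = 0.25), while control pGM had 599 ± 87.7 CPM. The call was also lost without control 76 or 87 (adjusted p = 0.12 and 0.077). Fcer1g, the signalling chain shared by activating Fc receptors, had 223, 123, 133 and 116 CPM in MLL-ENL libraries, against 60.4, 84.4, 60.1 and 53.6 CPM in control libraries. Its level in control pGM was 207 ± 27.9 CPM. Fcer1g had a log2 fold change of 1.20 ± 0.23 (adjusted p = 0.0075), or 0.94 without 73 HPC (adjusted p = 0.10, and 0.022 without both libraries numbered 73). The 3 remaining MLL-ENL libraries were above every control for both genes.

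Alox5, which encodes 5-lipoxygenase, the first enzyme of leukotriene synthesis, had 40.1, 4.87, 12.6 and 32.5 CPM in MLL-ENL libraries, against 0.751, 3.97, 1.14 and 2.86 CPM in control libraries. Libraries 73 and 81 were high and library 74 was near the highest control. Control pGM had 21.4 ± 3.78 CPM of Alox5. Alox5 had a log2 fold change of 3.44 ± 0.73 (adjusted p = 0.02), and 3.0 without 73 HPC (adjusted p = 0.10, and 0.023 without both libraries numbered 73). None of the other 13 tested genes of leukotriene and prostaglandin synthesis passed. Ccr1, a receptor for inflammatory chemokines, had 9.94, 4.42, 5.18 and 9.43 CPM in MLL-ENL libraries, against 1.97, 3.69, 1.07 and 2.15 CPM in control libraries. Ccr1 had a log2 fold change of 1.74 ± 0.38 (adjusted p = 0.028), and 1.54 (adjusted p = 0.12) without 73 HPC, and it was the only called gene of 12 tested chemokine receptors. Alox5 and Ccr1 also failed without MLL-ENL library 81 (adjusted p = 0.07 and 0.11), control 76 (0.15 each), control 87 (0.14 and 0.19) or control 88 (0.054 and 0.098). The other 2 genes were low throughout: Ccdc180 lay between 0.586 and 2.55 CPM in MLL-ENL and between 0.267 and 0.422 CPM in control libraries, and Shisa2 between 0.213 and 1.07 CPM in MLL-ENL and between 0 and 0.134 CPM in control libraries. Ccdc180 had a log2 fold change of 2.03 ± 0.45 (adjusted p = 0.035), or 1.62 (0.23) without 73 HPC, and Shisa2 one of 3.39 ± 0.77 (adjusted p = 0.046), or 3.01 (0.19) without 73 HPC. Leaving out 1 library beside 73 ended the call of Ccdc180 for 78, 76, 80, 87 and 88 (adjusted p = 0.071 to 0.16) and that of Shisa2 for 74, 76, 80 and 88 (adjusted p = 0.071 to 0.30).

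Some of the higher genes were neighbours, a grouping looked at after their values were seen. On chromosome 11, Rhbdf1, which encodes a pseudoprotease that governs the sheddase ADAM17, lies 9.3 kb from Il9r (32209585 to 32222300). It had 1.07, 5.39, 5.02 and 6.66 CPM in MLL-ENL libraries, against 0.891, 0.189, 0.401 and 0 CPM in control libraries. Library 73 lay just above the highest control, and the others were clearly above. Rhbdf1 had a log2 fold change of 3.48 ± 0.80 (adjusted p = 0.049), and 3.80 (adjusted p = 0.022) without 73 HPC. Mpg, a DNA glycosylase of base excision repair 4.2 kb beyond Rhbdf1, had 14.5, 18.6, 22.7 and 20.7 CPM in MLL-ENL libraries, against 10.1, 10.8, 11.2 and 10.9 CPM in control libraries. The groups did not overlap, and Mpg had a log2 fold change of 0.84 ± 0.20 (adjusted p = 0.06), or 0.94 (adjusted p = 0.03) without 73 HPC. Rhbdf1 did not pass without any one of 74, 78, 81, 80, 87 and 88 (adjusted p = 0.073 to 0.18). Nprl3, a regulator of the growth kinase complex mTORC1 that overlaps Mpg on the other strand, had a log2 fold change of 0.12 ± 0.18 (adjusted p = 1), or 0.18 without 73 HPC. Snrnp25, a spliceosome gene between Il9r and Rhbdf1, had 0.73 ± 0.20 (adjusted p = 0.18), or 0.80 (0.15) without 73 HPC, and the alpha globin gene Hba-a1 had -1.40 ± 0.96, or -1.91 without it. In P0 HPC, from the liver of newborn mice, Il9r, Rhbdf1 and Mpg had log2 fold changes of 3.39, 3.92 and 0.87 (adjusted p = 1.7e-04, 0.0018 and 0.0033). In HPC of the separate 10 week set labelled MLL-ENL (x2) the same genes had 7.64, 2.58 and 0.73 (adjusted p = 3.7e-05, 0.049 and 0.04). Neither Snrnp25 nor Nprl3 passed in P0 or x2 HPC. Snrnp25 had 0.50 ± 0.20 and 0.58 ± 0.15 there (adjusted p = 0.12 and 0.076), and Nprl3 had 0.47 ± 0.18 and -0.05 ± 0.17 (0.10 and 0.98). Nsg2, a vesicle protein gene on the other side of Il9r, had 2.06 in P0 and 3.0 in x2 HPC (adjusted p = 0.01 and 2.3e-04). In 10 week HPC Nsg2 had 1.14 (adjusted p = 1), or 1.33 (0.66) without 73 HPC.

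On chromosome 2, Skida1 (18040676 to 18049051, minus strand) and A930004D18Rik, an unnamed protein coding gene 2.9 kb away, were both higher. Skida1, a gene with a SKI/DACH domain, had 0.493, 1.80, 2.63 and 1.81 CPM in MLL-ENL libraries, against 0.0938, 0.0945, 0.0668 and 0 CPM in control libraries. It was low everywhere, with 96 counts over the MLL-ENL and 4 counts over the control libraries, and the groups were apart. Skida1 had a log2 fold change of 4.52 ± 0.71 (adjusted p = 2.7e-04), and 4.81 (adjusted p = 4.7e-05) without 73 HPC. A930004D18Rik had 1.48, 4.42, 3.37 and 3.25 CPM in MLL-ENL libraries, against 0.657, 0.378, 1.54 and 0.787 CPM in control libraries. Library 73 fell within the controls and the other 3 lay above them, with a log2 fold change of 1.87 ± 0.43 (adjusted p = 0.046), or 2.09 (adjusted p = 0.02) without it. Without any one of 74, 78, 81, 76, 80 and 88 it did not pass (adjusted p = 0.078 to 0.25). Mllt10, which lies 6.2 kb from Skida1 and encodes a partner of the methyltransferase DOT1L, had 0.25 ± 0.14 (adjusted p = 1), or 0.15 without 73 HPC.

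Skida1 was the only called gene of 23 tested MLL fusion targets, a list that includes the Hoxa genes. The list had a median log2 fold change of 0.36, and 0.39 without 73 HPC, and 16 of the 23 were above 0 both times, where 51.4% of all genes were with and 49.9% without 73 HPC. Hoxa9, the homeobox gene most used as a readout of the fusion, had 26.8, 45.4, 32.6 and 49.5 CPM in MLL-ENL libraries, against 34.7, 29.2, 29.5 and 25.6 CPM in control libraries. The groups overlapped, and the log2 fold change was 0.37 ± 0.22 (adjusted p = 1), or 0.51 ± 0.22 (0.73) without 73 HPC. Meis1, its cofactor, had 379, 489, 519 and 714 CPM in MLL-ENL libraries, against 595, 440, 601 and 499 CPM in control libraries, with -0.02 ± 0.22 (adjusted p = 1), or 0.10 without 73 HPC. Hoxa5 had a log2 fold change of 1.04 (adjusted p = 0.44; 1.30 and 0.12 without 73 HPC). The groups did not overlap for 4 of the 23, Skida1, Hoxa6, Hoxa7 and Prdm16, where 1.77% of all tested genes had such groups. Hoxa6, at 28 counts in MLL-ENL and 4 in control libraries, Hoxa7 and Prdm16 had 2.77, 0.36 and 0.67. Without 73 HPC they had 2.77, 0.39 and 0.58 (adjusted p = 0.48, 0.75 and 0.74). Hoxa10 had 0.57, or 0.89 (0.50) without 73 HPC, and Hoxa4 had -0.80, or -0.77 (0.92). In P0 HPC, Hoxa9 and Meis1 had 1.18 ± 0.22 and 1.11 ± 0.22 (adjusted p = 5.5e-04 and 0.0011). In HPC of the 10 week MLL-ENL (x2) set, Hoxa9 had 1.29 ± 0.18 (adjusted p = 3.9e-04) and Meis1 0.18 ± 0.22 (adjusted p = 0.93). Hoxa5 had 2.14 ± 0.35 in P0 HPC and 1.92 ± 0.33 in x2 HPC (adjusted p = 8.9e-05 and 0.0032). None of the 16 tested partners of MLL and ENL passed in 10 week HPC, and their median was 0.05, or 0.0 without 73 HPC.

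Genes with lower levels came from several functions. Klhl4 (chromosome X), a member of a family of adaptors for cullin 3 ubiquitin ligases, had 0, 1.72, 0.247 and 0.213 CPM in MLL-ENL libraries, against 15.3, 10.8, 14.6 and 14.3 CPM in control libraries. It was near 0 in all MLL-ENL libraries, with library 74 the highest. Klhl4 had a log2 fold change of -4.64 ± 0.57 (adjusted p = 2e-06), or -4.26 (adjusted p = 1.5e-05) without 73 HPC. C1qtnf6, a secreted protein with a C1q domain, had 3.53, 5.31, 4.28 and 7.30 CPM in MLL-ENL libraries, against 17.8, 24.1, 21.6 and 27.8 CPM in control libraries. All MLL-ENL libraries were well below all controls. C1qtnf6 had a log2 fold change of -2.15 ± 0.27 (adjusted p = 2e-06), and -2.02 (adjusted p = 4.7e-05) without 73 HPC, and of 8 tested C1q and TNF related genes it alone passed. Rftn2, a lipid raft protein, had 4.35, 7.34, 5.92 and 7.30 CPM in MLL-ENL libraries, against 28.1, 13.8, 19.9 and 18.6 CPM in control libraries. Its groups were apart, at a log2 fold change of -1.69 ± 0.27 (adjusted p = 4.3e-04), or -1.56 (adjusted p = 0.0069) without 73 HPC.

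Both called members of the megakaryocyte and platelet list fell. Mmrn1, which encodes multimerin 1, a protein stored in platelets, had 3.04, 10.7, 2.71 and 7.36 CPM in MLL-ENL libraries, against 79.2, 22.6, 56.8 and 28.2 CPM in control libraries. The controls spread over a wide range and all lay above the MLL-ENL libraries. The log2 fold change of Mmrn1 was -2.96 ± 0.44 (adjusted p = 9.2e-05), and -2.76 (adjusted p = 0.0014) without 73 HPC. Slc35d3, needed for the dense granules of platelets, had 1.07, 1.42, 3.95 and 3.94 CPM in MLL-ENL libraries, against 9.76, 14.5, 7.15 and 9.31 CPM in control libraries. Its log2 fold change of -1.95 ± 0.40 (adjusted p = 0.018) was -1.71 (adjusted p = 0.099) without 73 HPC, and it also failed without MLL-ENL library 74 or control 80 (adjusted p = 0.076 and 0.071). The other 13 tested members of that list did not pass, and the list's median was 0.09, or -0.21 without 73 HPC.

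Cd14, the co-receptor that hands bacterial endotoxin to Toll-like receptor 4, had 0.822, 1.05, 0.493 and 0.426 CPM in MLL-ENL libraries, against 9.66, 12.3, 9.16 and 6.23 CPM in control libraries. The groups were far apart with or without the library labelled 73 HPC. The log2 fold change was -3.75 ± 0.79 (adjusted p = 0.02), and -3.84 (adjusted p = 0.075) without 73 HPC. Without 78, 81 or control 80 the adjusted p of Cd14 was 0.073, 0.11 and 0.053. Control pGM had 26.5 ± 3.52 CPM of Cd14, more than control HPC, and it was the only called gene of 15 tested Toll-like receptor and endotoxin genes. Lvrn, the aminopeptidase laeverin, had 0.493, 0.0748, 0.164 and 0 CPM in MLL-ENL libraries, against 5.02, 4.06, 3.41 and 2.65 CPM in control libraries, or 9 counts in MLL-ENL and 238 in control libraries in all. It had a log2 fold change of -4.41 ± 0.89 (adjusted p = 0.018; 0.012 without 73 HPC), and an adjusted p of 0.052 to 0.079 without 74, 78, 81 or control 76. Epb41l5, a FERM protein of cell polarity, had 1.89, 2.99, 1.89 and 4.74 CPM in MLL-ENL libraries, against 10.1, 8.32, 9.22 and 8.38 CPM in control libraries. Its log2 fold change of -1.63 ± 0.36 (adjusted p = 0.035) no longer passed without 73 HPC (adjusted p = 0.15), nor without any other library but 81 (adjusted p = 0.054 to 0.14).

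The last 2 of the higher genes are a long noncoding RNA and an antibody gene segment. The noncoding 1810006J02Rik lay between 1.17 and 3.67 CPM in MLL-ENL and between 0.134 and 0.787 CPM in control libraries (adjusted p = 0.018, and 0.019 without 73 HPC), and it did not pass without 74, 76, 80 or 87 (adjusted p = 0.071 to 0.18). Igkv2-137, a variable segment of the immunoglobulin kappa locus with many similar copies, had 0.575, 0.299, 76.2 and 0.8 CPM in MLL-ENL libraries, against 0.328, 0.0945, 0.535 and 0 CPM in control libraries. Library 78 alone was high, and the other MLL-ENL libraries lay close to the controls. Its call (adjusted p = 0.005) rests on that library, without which it fell under the filter on low counts and was not tested, and reads shared with other kappa segments make its count uncertain.

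Lists of other cell types had no called gene in most cases. Among 16 mast cell and basophil genes, 12 were above 0 with a median log2 fold change of 1.26, and none passed in the edgeR fit of 47 libraries. With DESeq2, 4 of them passed, Cpa3 (adjusted p = 0.009), Gata1 (0.023), Gzmb (0.042) and the Fc receptor chain gene Ms4a2 (0.049). With the controls of both 10 week sets pooled 5 passed, Cpa3 (adjusted p = 0.00052), Gata1 (0.0018), Cd200r3 (0.0044), Ms4a2 (0.0052) and Gzmb (0.025). Both of these fits include the library labelled 73 HPC. The mast cell protease gene Cpa3 had 269, 24.3, 28.5 and 49.0 CPM in MLL-ENL libraries, against 11.9, 23.5, 20.5 and 15.7 CPM in control libraries. Cpa3 was at 256 CPM on average in control pGM, close to its level in the library labelled 73 HPC, and its log2 fold change was 2.37 (adjusted p = 0.072) with and 0.92 (adjusted p = 0.78) without that library. The erythroid and mast cell factor Gata1 had 67.1, 3.07, 4.77 and 9.11 CPM in MLL-ENL libraries, against 1.69, 6.52, 3.74 and 0.787 CPM in control libraries. Its log2 fold change was 2.76 ± 0.72 (adjusted p = 0.12) with and 0.89 (0.84) without 73 HPC. Without 73 HPC the median of the mast cell and basophil list was 0.54, that of the 16 erythroid genes was 0.41, against 0.89 with it, and that of the 20 monocyte and dendritic genes was -0.19, against 0.52 with it. The serine protease gene Gzmb, also on the mast cell list, had 5.42, 2.62, 5.26 and 10.6 CPM in MLL-ENL libraries, against 0.281, 0.0945, 0.468 and 0.0716 CPM in control libraries. Its groups were apart, and its log2 fold change was 4.59 ± 1.33 (adjusted p = 0.26), or 4.62 (0.26) without 73 HPC. Gzmb passed with the 8 libraries fitted alone (adjusted p = 0.022), as it did with DESeq2 and with pooled controls. In the fit of the 8 libraries alone only 6 of the 26 called genes passed.

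All 20 mitosis genes had a log2 fold change below 0 with and without 73 HPC, with medians of -0.32 and -0.43, and none passed. Kif11, a spindle motor, had -0.48 (adjusted p = 0.73) with all libraries and -0.73 (adjusted p = 0.12) without 73 HPC. Of 22 DNA replication genes, 20 were below 0 (median -0.15, and -0.27 without 73 HPC). The type I interferon list, 19 of 22 below 0, had a median of -0.27, which was -0.07 without 73 HPC. Kif23, another spindle motor, had -0.47 (adjusted p = 0.75; -0.58 and 0.46 without 73 HPC). Pola1 and Cdc45, of the replication fork, had -0.26 and -0.23, and Ifit2 and Ddx58, of the interferon response, had -0.40 and -0.43, each at an adjusted p of 1. Without 73 HPC these values were -0.58, -0.32, -0.38 and -0.26. Of 8 Fc receptor genes and of 6 galectins 1 each was called, as above. Their medians were 0.86 and 0.08, or 0.75 and 0.09 without 73 HPC. Of 2 tested protocadherins Pcdh7 was called. Ms4a2, expressed by mast cells and basophils, had 2.9 ± 0.79 (adjusted p = 0.18), or 2.23 (0.53) without 73 HPC.

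The remaining lists had no called member in the fit of 47 libraries, and the members with the smallest p are given as log2 fold changes. Among 17 neutrophil granule genes (median 0.34, and 0.21 without 73 HPC) the proteases and peroxidase led. Ctsg, which encodes cathepsin G, had 1.83 ± 0.57 (adjusted p = 0.36), and 0.33 without 73 HPC, and Mpo, myeloperoxidase, had 1.25 ± 0.49 (adjusted p = 0.81), and -0.26 without it. Among the monocyte genes F13a1, a coagulation factor subunit of monocytes, had 2.88 ± 0.89 (adjusted p = 0.35), and -0.67 without 73 HPC. The macrophage growth factor receptor Csf1r had 147, 8.68, 6.99 and 14.4 CPM in MLL-ENL libraries, against 25, 28.1, 23.9 and 14.6 CPM in control libraries. Without 73 HPC every remaining Csf1r value lay below the controls, with -1.19 (adjusted p = 0.56), and with it the change was 0.95 (adjusted p = 1). Of the 16 erythroid genes Car1, a carbonic anhydrase of red cell precursors, had 3.63 ± 0.94 (adjusted p = 0.12), and 2.02 (adjusted p = 0.72) without 73 HPC. Car1 passed with DESeq2 (adjusted p = 0.0091), and Car1, Ctsg, F13a1, the monocyte gene Ly86 and the eosinophil gene Siglecf passed with pooled controls (adjusted p = 0.0025 to 0.048).

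For 20 stem cell genes the median was -0.05, or 0.05 without 73 HPC. The receptor gene Kit had -0.57, or -0.86 without 73 HPC, and the factor gene Mecom 0.65, or 0.93 (adjusted p = 1 each with 73 HPC, 0.51 and 0.48 without). The 12 genes of the HPC sort and lymphoid priming had a median of -0.30, or -0.47 without 73 HPC, with 10 below 0. Among them Cd48 had 0.37, or 0.30, and Satb1 -0.47, or -0.46. The 9 other HPC genes had a median of -0.11, or 0.07 without 73 HPC. In the MHC class II list (median 0.0, or 0.06) H2-Ab1 had -0.44, or -0.54 without 73 HPC. In the eosinophil list (median -0.25, or -0.08) Siglecf had 1.66 ± 0.50 (adjusted p = 0.33), or 0.48 without 73 HPC. Among 13 T, B and NK cell genes (median 0.22, or 0.03) Cd4 had -0.96 ± 0.31 (adjusted p = 0.40), or -0.76 (0.67) without 73 HPC. Among 7 stroma genes (median 0.03, or 0.19) Sparc had 1.54 ± 0.61 (adjusted p = 0.82), or 1.07 without 73 HPC. Medians were 0.02 for ribosome biogenesis, 0.07 for oxidative phosphorylation and -0.04 for the p53 response, or -0.03, 0.08 and -0.16 without 73 HPC. In these lists Rrs1 had 0.31, Ndufa1 0.37 and Eda2r -1.33 (adjusted p = 1 each), or 0.23, 0.38 and -1.58 without 73 HPC.

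**Figure D4:**
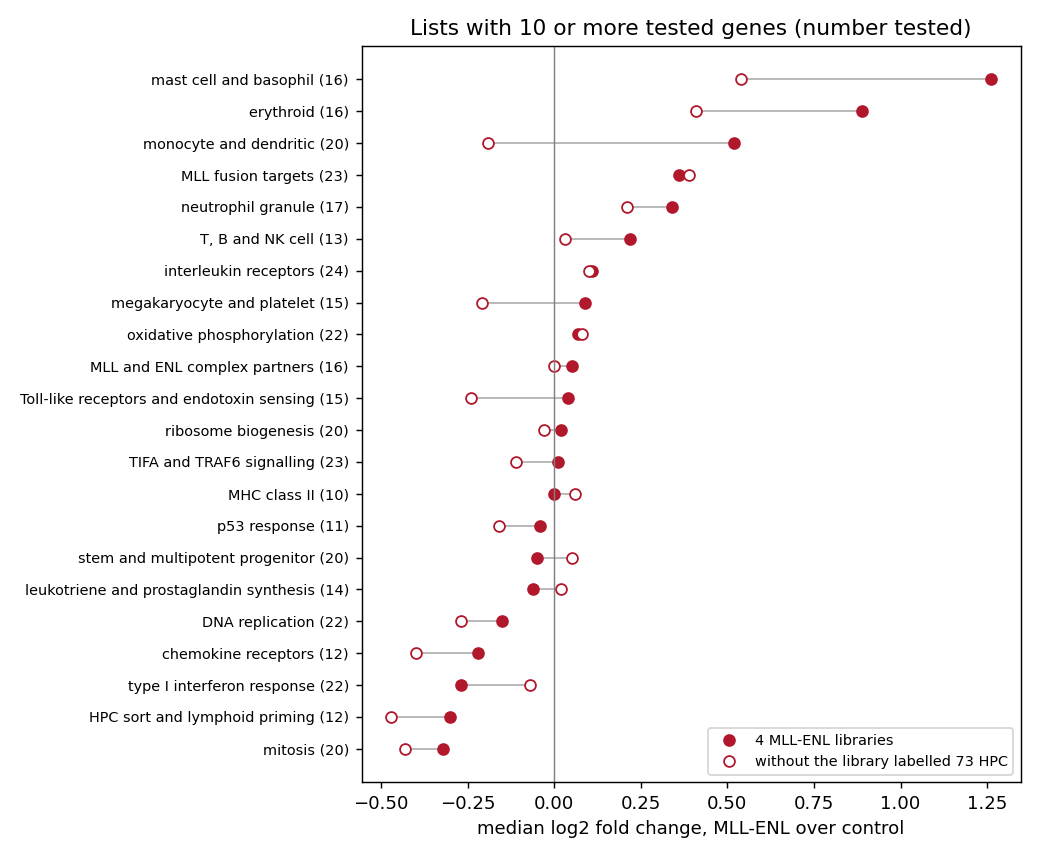
Median log2 fold change of MLL-ENL over control HPC in each gene list with 10 or more tested genes, with all 4 MLL-ENL libraries (filled) and without the library labelled 73 HPC (open). The mast cell, erythroid and monocyte lists move most, to 0.54, 0.41 and -0.19, while the MLL fusion targets stay at 0.36 and 0.39.

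The called genes were then followed through the other comparisons of genotype, which use other libraries. In the pGM libraries of the same numbers 14 genes passed (0.094%), among them 6 of the 26 in the same direction, namely Il9r, C1qtnf6, Sva, Ehd3, Klhl4 and Cd14. Without the library labelled 73 pGM 6 genes passed (0.0403%), and all 6 were among the 26: Il9r, C1qtnf6, Sva, Ehd3, Klhl4 and Rftn2. In pGM C1qtnf6 had -2.88 ± 0.27 and Klhl4 -5.74 ± 0.71 on the log2 scale (adjusted p = 5.4e-09 and 2.2e-06). In GMP 3 genes passed (0.0201%), 2 of them among the 26, C1qtnf6 and Sva. The test of a difference between the effects in HPC and pGM found no gene with edgeR, with 444 at an unadjusted p under 0.05 (0 and 344 without both libraries numbered 73), and that between HPC and GMP found 1, Plekhh2, and 0 without 73 HPC, with 490 at an unadjusted p under 0.05. Each of these counts at an unadjusted p under 0.05 is below the share of 0.05 of genes that chance alone would give. In the library labelled 73 pGM, whose score lies with HPC, Il9r stood at 17.6 CPM and Tifab at 82.4 CPM, above every control HPC library. Klhl4 at 0 CPM and C1qtnf6 at 3.45 CPM were below them, while Alox5 at 1.27 CPM and Ccr1 at 3.63 CPM lay within the controls and Cdh1 at 0.0606 CPM was near their lowest value.

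In the separate set of 10 week mice labelled MLL-ENL (x2), whose 3 MLL-ENL (x2) HPC libraries had 4 control libraries of their own, 142 genes passed (0.996%). The labels do not say what x2 stands for. Of the 25 called genes tested there, 23 had the same direction and 16 passed, which is 64% of the 25 and 11.3% of the 142. Tifab had 3.67 ± 0.23 (adjusted p = 3.6e-09), Ehd3 4.12 ± 0.37 (1.3e-06), Pcdh7 5.01 ± 0.51 (6.8e-06), Klhl4 -6.97 ± 0.85 (5.9e-05), C1qtnf6 -4.08 ± 0.33 (2.8e-07) and Cd14 -3.81 ± 0.37 (4.8e-06) on the log2 scale. Lgals1 passed in this set too, at 0.97 ± 0.23 (adjusted p = 0.044), while Fcer1g (0.66, adjusted p = 0.11), Ccr1 (0.63, adjusted p = 0.56) and Alox5 (-1.61, adjusted p = 0.44) did not. In pGM of the x2 set 119 genes passed (0.835%), 16 of the 25 among them, and in GMP 128 (0.898%), 6 of the 25 among them. No gene differed in effect between MLL-ENL and MLL-ENL (x2) HPC by edgeR, of 13601 tested, with 330 at an unadjusted p under 0.05. Without 73 HPC none of 13562 did, with 539 at an unadjusted p under 0.05. Both counts are below the share of 0.05 of genes that chance alone would give.

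In newborn (P0) HPC 1133 genes passed (7.6%), of which 10 were among the 26: Il9r, Rhbdf1, C1qtnf6, Sva, Pcdh7, Cd14, A930004D18Rik, Skida1, Mmrn1 and 1810006J02Rik, all in the same direction. Of the other P0 comparisons, pGM had 52 genes (0.349%) and GMP had 17 (0.114%), each with 5 of the 26. At 6 and at 12 months, in HPC of other mice that were labelled as having had doxycycline and an adult induction, 1 gene passed at each age (0.00766%), and it was Sva at both. Of the 26 genes 19 were tested there.

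The effect of the fusion at 10 weeks differed from that at P0 in 238 genes (1.6%), among them 7 of the 26. Without the library labelled 73 HPC there were 116 such genes (0.779%) and 5 of the 26. The 26 genes were chosen on the same 10 week libraries, so their share cannot be weighed against that of all genes. Age and tissue, marrow at 10 weeks and liver at P0, cannot be told apart in this test. Klhl4 averaged 0.545 ± 0.792 CPM in MLL-ENL and 13.7 ± 2.02 CPM in control HPC at 10 weeks, and 15.3 ± 3.22 CPM in MLL-ENL and 8.04 ± 5.73 CPM in control HPC at P0 (SD, n = 4 each). The log2 fold change at 10 weeks minus that at P0 was -5.57 ± 0.73 (adjusted p = 1.2e-05), and -5.23 (adjusted p = 2e-05) without 73 HPC. Tifab averaged 156 ± 96.4 CPM in MLL-ENL and 23.3 ± 6.03 CPM in control HPC at 10 weeks, and 111 ± 10.1 CPM in MLL-ENL and 197 ± 117 CPM in control HPC at P0. This gave a difference of 3.57 ± 0.54 (adjusted p = 1.3e-04), and 2.98 (adjusted p = 0.0012) without 73 HPC. Alox5, Shisa2 and Ccr1 differed by 5.33, 4.46 and 2.44 and passed both times. Lgals1 and Fcer1g differed by 1.41 and 1.39 and did not pass without 73 HPC (adjusted p = 0.26 and 0.10).

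**Figure D5:**
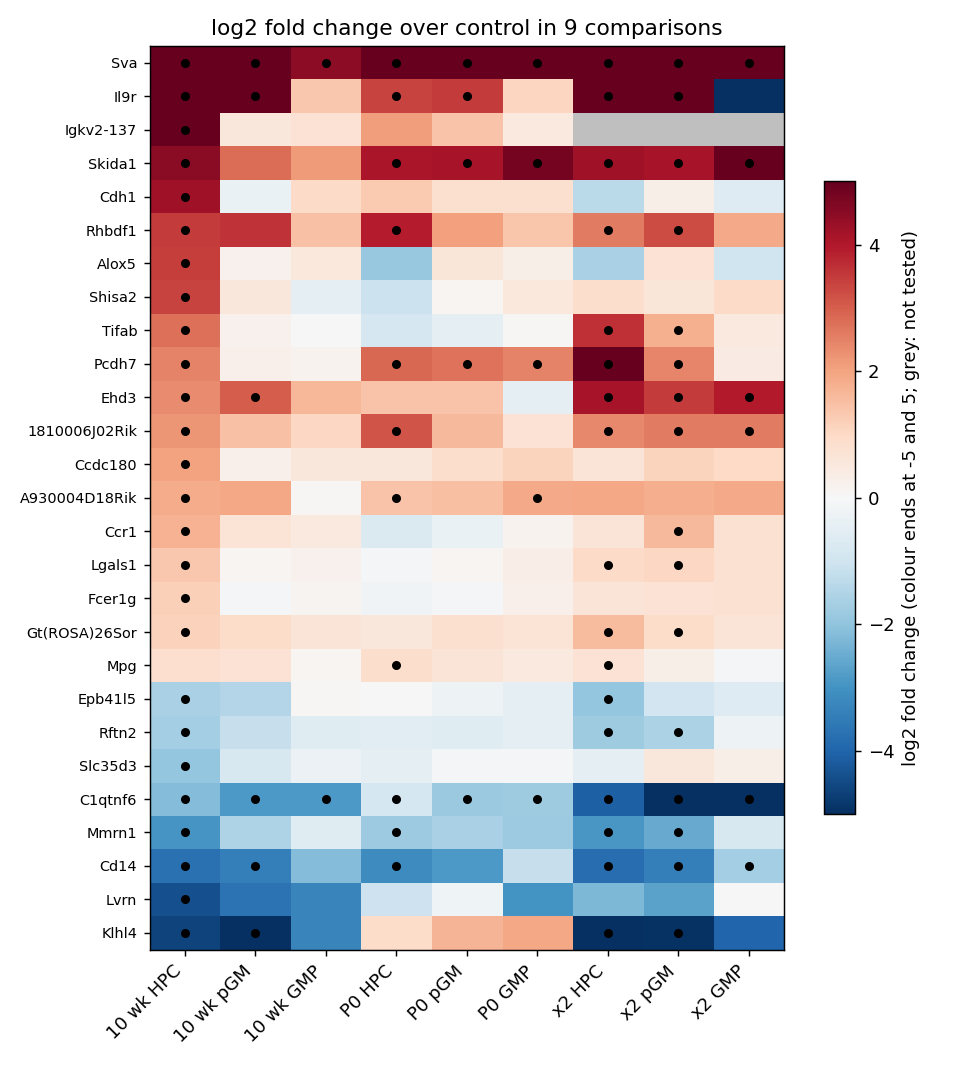
log2 fold change of MLL-ENL over control for the genes called in 10 week HPC (rows) in 9 comparisons (columns: 10 week, P0 and x2 sets by population), with dots where the adjusted p is under 0.05 and grey where the gene was not tested. C1qtnf6 is lower in all 9; Klhl4 is lower in the 10 week and x2 sets and above 0 at P0; Alox5 passes in 10 week HPC and in none of the other 8. Fitted values of genes near 0 in one group, such as Sva and Il9r in x2 GMP, depend on the prior count.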

How the data were processed

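RNA was prepared from bone marrow progenitors with Qiagen RNeasy micro plus and Clontech SMARTer chemistry, per the labels' protocols. The values are whole-number counts per gene in a single table, deposited by the authors. The submitters' processing notes name STAR 3.0.4, Subread and featureCounts 1.4.5. No genome build, annotation or strand setting is stated in the sources used here. Without known strand, reads of overlapping genes cannot be told apart. The table has 41388 mouse genes, of which 40254 were given a symbol; the other 1134 hold 0.172% of counts.

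Gene tests used edgeR 4.0.16 (R 4.3.3): TMM scaling, filterByExpr and the quasi-likelihood F test on the 47 P0 and 10 week libraries, which share one estimate of spread, with Benjamini-Hochberg adjustment over all tested genes and a threshold of 0.05. DESeq2 1.42.0 was an alternative. CPM values are scaled with TMM, and log2 scores use a prior count of 2. Levels are not corrected for gene length. Counts were simulated with each gene at its mean over the 47 libraries and its fitted spread, and changes were planted in 10 week MLL-ENL HPC alone. On these counts (14420 genes in the fit), edgeR recovered 40 of 99 genes changed 2-fold and 73 of 96 changed 4-fold. It called 7 of 14225 unchanged genes. Gene levels of 10 week HPC and the pGM markers of 73 HPC were not simulated, so rates in the real comparison may differ. No 2 libraries of a group were duplicates.

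Genes are named by rule: every gene with a symbol past the threshold with or without the library labelled 73 HPC, Kmt2a, Mllt1, Hoxa9, Meis1, and of each list up to 4 called members or, where none passed, those with the smallest p. Plekhh2, Csf1r's libraries, values of the 2 genes with Rik names, Nsg2 and the other neighbours on chromosomes 2 and 11, and the choice of promoters with matching start sites were added after their values were seen. So were the single markers of the library labelled 73 HPC, Prdm16, and the Hoxa genes other than Hoxa5 and Hoxa9. The genes and lists were chosen with earlier results of these data known. The alternative without the library labelled 73 pGM in the pGM comparison was chosen after seeing the data.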

Additional observations from a re-analysis of the deposited data

Results flagged for a closer look

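Single libraries stood far from the other 3 of their group for 6 genes, by Dixon's criterion over 27 genes and 54 groups, where chance flags about 1 group in 20. Igkv2-137 reached 76.2 CPM in MLL-ENL library 78, and had 0.622 CPM in the pGM and 0.297 CPM in the GMP library of the same number. The library labelled 73 HPC was high for Tifab (299 CPM) and Fcer1g (223 CPM), beside its pGM marker levels. MLL-ENL library 74 was high for 1810006J02Rik (3.67 CPM) and for Klhl4 (1.72 CPM). Control library 87 was high for Ehd3 (5.35 CPM).

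The effect in 10 week HPC minus that at P0 passed the test of the difference for Alox5 (5.33, adjusted p = 0.002), Shisa2 (4.46, 0.008), Tifab (3.57, 1.3e-04), Ccr1 (2.44, 0.0061), Lgals1 (1.41, 0.042), Fcer1g (1.39, 0.016) and Klhl4 (-5.57, 1.2e-05), on the log2 scale. These genes had been called on the same 10 week libraries that enter this test. Plekhh2 passed the test of a difference between HPC and GMP (fitted value 17.7, adjusted p = 0.049). It held 1540 CPM in the library labelled 73 HPC and at most 0.693 CPM in the other 7 HPC libraries, with 4.48 CPM in the library labelled 73 pGM, 2.59 CPM in 73 GMP, and 427 and 99.0 CPM in the control GMP libraries 76 and 88. The cause was not tested.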

How the results depend on the processing

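The count of 26 called genes was 26 with RLE scaling, the same 26 genes, and 26 without both libraries numbered 73, of which 19 were shared. It was 42 with no filter on low counts, 7 with the 8 libraries alone (12356 genes tested), 12 with the 24 libraries of 10 weeks, 82 with the controls of both 10 week sets pooled and 59 with DESeq2. Leaving out each library in turn gave 17 (control 76) to 32 (MLL-ENL 74), and 18 without 73 HPC. Causes of these shifts were not tested. Of 381 values of the 26 genes under 15 alternatives, 276 stayed on their side of the threshold, 105 no longer passed and 0 changed sign. With the 8 libraries alone 15 of the genes no longer passed, among them Klhl4 (adjusted p = 0.054), Rftn2 (0.08), Mmrn1 (0.12) and Pcdh7 (0.26). Those of the 26 that passed there were Sva, Il9r, Tifab, Ehd3, C1qtnf6 and Cd14. Sva, Il9r, Tifab and C1qtnf6 passed in all 15 alternatives. Igkv2-137, high in library 78 alone, passed in the 10 in which it had an adjusted p. It had none with DESeq2, with the 8 libraries alone, with the 24 libraries of 10 weeks, without library 78 or without library 81. Mpg, not called with all libraries, passed in 4 of 15. The transgene's log2 difference was 4.99, 2.36 with a pseudocount of 1 (p = 0.029 in the exact test) and 5.06 without 73 HPC (p = 0.057, the smallest possible). The count of genes whose effect differed between HPC and GMP was 1, 2 with RLE scaling (Plekhh2 and Tifab), and 0 without 73 HPC. MLL-ENL and control libraries share no number, so their comparison could not be paired. With the library number as a replicate block the HPC and GMP count was also 0, as it was for HPC against pGM. Deviations of same-numbered libraries correlated at -0.5 (number 73) to 0.3 between HPC and pGM and at 0.06 to 0.41 between HPC and GMP. Against P0 the count was 238, 223 with RLE scaling and 116 without 73 HPC. Medians of 2 of the 30 lists moved by more than the spread between libraries, both without 73 HPC. At 10.26 to 19.2 M counts, genes near 1 CPM have few reads, which limits fold changes of Shisa2, Skida1 and Lvrn.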
